A study of Mus musculus with 14 samples.

Results

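After transcription is blocked, an mRNA that is degraded at a constant rate loses the same share of its remaining copies in every hour, so its log level falls along a straight line. Whether that held between 1 and 4 h of actinomycin D was examined at 11263 mRNA 3' ends, or poly(A) sites, which are 33.5% of the 33590 in the table. These sites passed the authors' filter on read number and held at least 40 reads in the 1 h library. The 3 libraries, from cells treated for 1, 2 and 4 h, give 2 consecutive intervals, and the loss per hour in the first was set against that in the second.

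Actinomycin D binds DNA and stops RNA polymerases, after which the mRNAs already made are removed by shortening of the poly(A) tail, removal of the cap and digestion. In fibroblasts, mRNAs of regulators such as early response transcription factors are known for being removed fast, and those of structural and metabolic proteins for lasting long. The cells were 3T3, a mouse fibroblast line. Cells received actinomycin D at 10 µg/ml for 1, 2, 4 or 8 h, with 1 library for each time, and 2 libraries came from control cells. All were made from poly(A)-selected RNA by 2P-Seq, which primes on the poly(A) tail and reads inward from it, so an mRNA that has lost its tail leaves the measurement. The labels do not tell whether the controls were separate cultures. If they were not, p-values measure only the spread between these libraries, which may be technical. The RNA is from bulk cells, so fewer cells and less RNA per cell cannot be told apart. The table gives positions in the mm9 build and no gene names, so sites are named here by position and the fibroblast identity was not checked against marker genes.

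The 1, 2 and 4 h libraries held 6111232, 5858649 and 5048797 reads, and the sites followed here took 97.3% to 97.9% of them. Levels are read counts divided by the library's factor in the file header, here called normalised counts. The factors were 0.922, 0.946 and 0.883, and how they were derived is not given in the header; all losses and half-lives below rest on them unless another scaling is named. A loss is the fall of log2((count + 0.5)/factor) per hour, and the change of rate is the loss per hour from 1 to 2 h minus that from 2 to 4 h. It is 0 for a single exponential and above 0 where loss slowed.

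With the header's factors, the typical site lost mRNA in both intervals and lost less per hour in the second. The median loss was 0.35 log2 per hour from 1 to 2 h, with the middle 50% of sites between 0.026 and 0.72. It was 0.19 log2 per hour from 2 to 4 h, with the middle 50% between 0.025 and 0.40. These medians equal 21.3% and 12.4% of the mRNA lost per hour, or half-lives of 2.90 and 5.24 h. At the median, 78.7% of the 1 h level was left at 2 h and 61.1% at 4 h. The median change of rate was 0.14 log2 per hour (middle 50% of sites from -0.19 to 0.46), and it was above 0 at 61.3% of sites. Carried on unchanged, each site's loss from 1 to 2 h gave a 4 h level that the measured one exceeded by a median of 1.21-fold, and 44.6% of sites came within 1.5-fold of it.

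**Figure D1:**
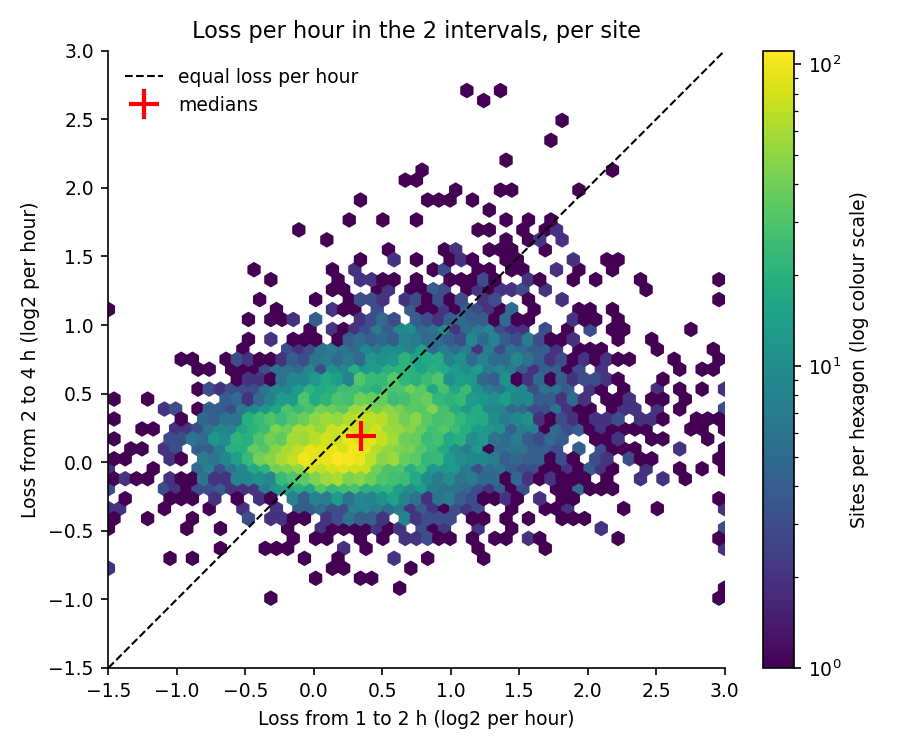
Loss from 1 to 2 h (x axis) against loss from 2 to 4 h (y axis), both in log2 per hour, for 11263 sites as a density of hexagons on a log colour scale; 34 sites beyond -1.5 or 3 are drawn at the edge. The cross at the medians, 0.35 and 0.19 with the header's factors, lies below the dashed line of equal loss; with TMM it moves to -0.0035 and 0.027.

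The size of this typical slowing rested on how the libraries were scaled. TMM, which sets the typical site near no change, shifted every site's loss from 1 to 2 h by -0.35 and from 2 to 4 h by -0.16 log2 per hour. Under TMM the median losses were -0.0035 and 0.027, the median change of rate was -0.049, so its sign turned, and 45.9% of sites were above 0. RLE, the scaling of DESeq2, gave 0.0043, and library totals gave 0.096 with 58.2% of sites above 0. The order of the sites and the spread between them (SD 0.59 log2 per hour) are the same under all 4 scalings, because a scaling moves every site by the same amount.

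**Figure D2:**
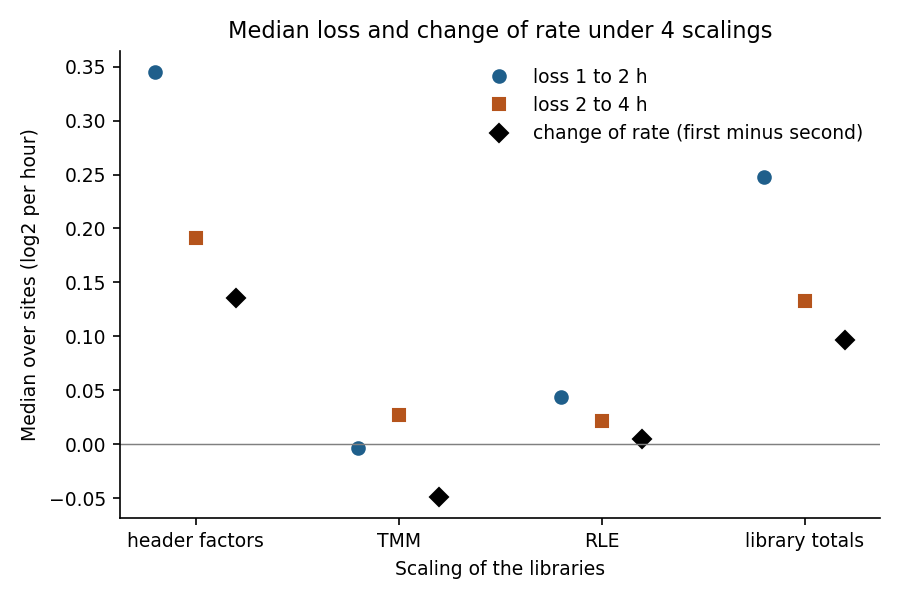
Median loss per hour in each interval and median change of rate (y axis, log2 per hour) over 11263 sites under 4 scalings of the libraries (x axis). The median change of rate is 0.14 with the header's factors and -0.049 with TMM.

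With the header's factors, sites differed in the sign of their losses. At 6883 sites (61.1%) the level was lower at 2 h than at 1 h and lower again at 4 h, with median losses of 0.53 and 0.30 log2 per hour, and the loss was smaller in the second interval at 72.0% of them. At 1771 sites (15.7%) the level was lower at 2 h and no lower at 4 h. At 1973 sites (17.5%) it was no lower at 2 h than at 1 h and lower at 4 h. The last 636 sites (5.65%) were no lower in either interval. Sites of this last kind had a median of 253 reads at 1 h, against 156 where the level was lower in both intervals.

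Departures of single sites from a straight line were about as large as the difference between the controls. At 88.1% of sites the 2 h level lay within 1.5-fold of the straight line through the 1 and 4 h levels, while the 2 controls lay within 1.5-fold of each other at 80.6%. The first of these combines 3 libraries with weights that give it a smaller spread than a plain difference of 2, so the shares are not like for like, and the change of rate was therefore set against the spread the controls imply for it. If the 3 time libraries varied from site to site as the controls do, the change of rate would have a robust SD (from the middle 50%) of 0.56 log2 per hour, and 0.48 was observed. The observed spread was below that figure at every read depth. At sites with 40 to 79 reads at 1 h it was 0.71 against 0.73, and at sites with 2000 or more it was 0.32 against 0.42. The difference between the controls was itself weakly related to the loss from 1 to 2 h across sites (Pearson r = -0.18, Spearman rho = -0.19, 11263 sites that share the same libraries), and what this contributes to the losses was not tested.

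**Figure D3:**
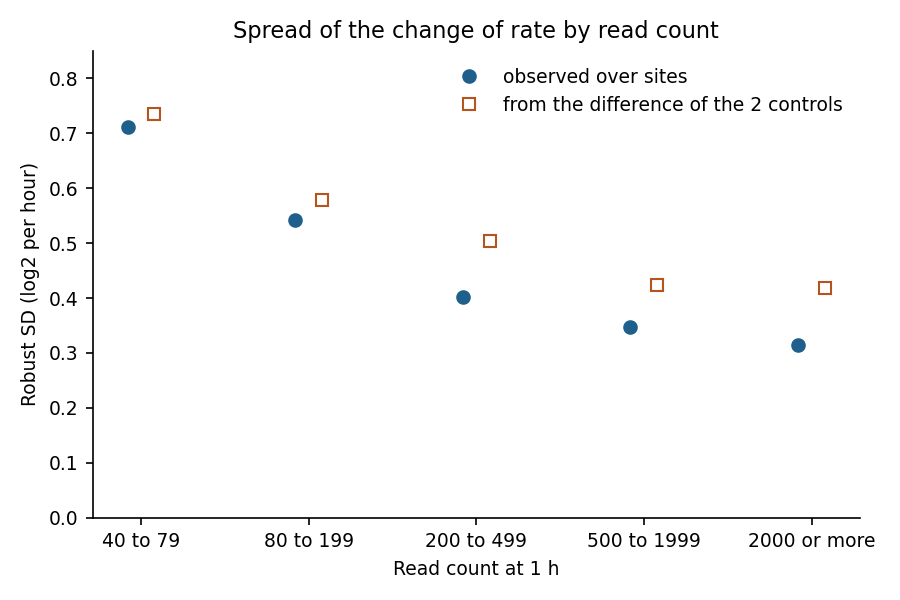
Robust SD of the change of rate over sites (filled circles) and the value that the difference between the 2 controls gives (open squares), in log2 per hour on the y axis, by read count at 1 h on the x axis. The circles lie below the squares in all 5 classes, at 0.71 against 0.73 with the fewest reads and 0.32 against 0.42 with the most.

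A test of each site found few departures from a single exponential. The edgeR quasi-likelihood test, in which only the 2 controls inform the spread and each lone time library is assumed to vary like them, was run on 16913 sites. At an adjusted p under 0.05, 4 sites were called for a change of rate, all among the sites followed here: 3 slowed and 1 had its change of rate below 0. The shares called among all sites tested were 0.0237% in all, 0.0177% above 0 and 0.00591% below 0. Before adjustment, 385 of the 11263 sites (3.42%) had a p under 0.05, of which 288 were above 0 and 97 below. Over all 16913 sites tested it was 583 (3.45%), of which 394 were above 0 and 189 below. Neither share exceeds the 0.05 that a calibrated test gives where no rate changes. The test could see only large changes: the 95% interval reached a median of 1.16 log2 per hour to either side, and it lay wholly within 1 log2 per hour of 0 at 953 sites (8.46%). A missing call therefore does not show that a site decayed as a single exponential. DESeq2 called 0 sites, with 83 at an unadjusted p under 0.05. With 1 slope shared from 2 to 8 h, edgeR called 11 sites, and leaving out control 1 or control 2 from that fit gave 76 or 72; no pair of controls then remains, and the spread comes from the shared slope alone.

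The losses themselves were called at more sites. From 1 to 2 h, 224 sites fell and 10 rose (edgeR, adjusted p under 0.05), and of all sites tested 1.49% were called, 1.39% as falling and 0.101% as rising. From 2 to 4 h, 332 fell and 7 rose, and of all sites tested 2.13% were called, 2.08% as falling and 0.0532% as rising. The median loss of the sites that fell was 1.93 log2 per hour in the first interval and 0.97 in the second. These medians cannot be compared as rates, because a call needed a larger loss per hour in the first interval. Over the 11263 sites, the confidence interval of the loss reached a median of 0.87 log2 per hour to either side from 1 to 2 h. From 2 to 4 h it reached 0.45. The 47 sites called in both intervals made up 21.0% of the first list and 14.2% of the second. The scaling moved these splits: with TMM 36 fell and 12 rose from 1 to 2 h and 19 and 3 from 2 to 4 h, and with RLE 111 and 42, and 94 and 21. Library totals gave 74 and 7, and 62 and 1.

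The sites called as slowing were already far below the controls at 1 h. A pair of ends on chromosome 10 (plus strand, 17445471 and 17445443, mm9) is 1 example. The end at 17445471 held 4106 and 3712 normalised counts in the controls, then 502, 61.3, 34.0 and 41.7 after 1, 2, 4 and 8 h of actinomycin D. It had thus lost most of its level before 1 h, fell again to 12.2% of the 1 h level at 2 h, and was at 0.869% of the mean of the controls at 4 h and 1.07% at 8 h. Its loss was 3.02 log2 per hour from 1 to 2 h and 0.42 from 2 to 4 h, half-lives of 0.331 and 2.38 h. The loss from 2 to 4 h rests on raw counts of 58 and 30. It was called with none of the 4 scalings (edgeR adjusted p = 0.286 with the header's factors). The change of rate was 2.61 ± 0.48 (SE, edgeR adjusted p = 0.0236). The authors' deposited table gives this end a half-life of 0.322 and 7.03 ribosomes per mRNA.

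Its neighbour at 17445443 held 4116 and 3655 normalised counts in the controls and 499.9, 67.7, 41.9 and 49.3 at 1, 2, 4 and 8 h, with a change of rate of 2.54 ± 0.48 (edgeR adjusted p = 0.0236). The raw counts of both ends were close in every library, 463 and 461 at 1 h, for example, so this pair is no second observation. Close counts were a feature of near neighbours in general. Among neighbouring sites 20 to 39 nt apart, 92 of 746 (12.3%) had counts within 1.25-fold of each other in all 6 libraries, against 4 of 450 (0.889%) at 40 to 99 nt and 2 of 1897 (0.105%) at 100 to 2000 nt. Whether reads were counted at both sites was not tested.

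The third slowing site, on chromosome 19 (minus strand, 5917560), held 789 and 849 normalised counts in the controls, then 106, 7.40, 14.7 and 8.85 after 1, 2, 4 and 8 h. These are raw counts of 98, 7, 13 and 7, so the later levels rest on few reads. The change of rate was 4.31 ± 0.79 (edgeR adjusted p = 0.0236), and the loss from 1 to 2 h was called with all 4 scalings. Because of its low counts the naming rule did not select this site, and it was added after its values were seen. The calls of all 3 slowing sites were lost with TMM (adjusted p of 0.20 for the pair on chromosome 10 and 0.141 here), with library totals (0.136 for each) and with DESeq2 (0.116 for the pair and 0.327 here), and kept with RLE.

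The 1 called site with the opposite sign did not decay steadily. On chromosome 2 (plus strand, 121263714) it held 557 and 710 normalised counts in the controls and 799 at 1 h. It rose to 3075 at 2 h, 3.85-fold above 1 h, and stood at 1644 at 4 h and 1907 at 8 h. The 2 h library is the highest of the 6, and all 4 treated libraries lie above both controls. The rise from 1 to 2 h was called (-1.94 ± 0.31 log2 per hour, edgeR adjusted p = 3.28e-04), while the loss of 0.45 ± 0.15 from 2 to 4 h was not (adjusted p = 0.108). The change of rate of -2.40 ± 0.39 had an edgeR adjusted p of 0.00616 and stayed called with all 4 scalings (highest adjusted p 0.0431). DESeq2 gave an adjusted p of 0.116. In the authors' deposited table its half-life is 29.1 with 9.55 ribosomes per mRNA.

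**Figure D4:**
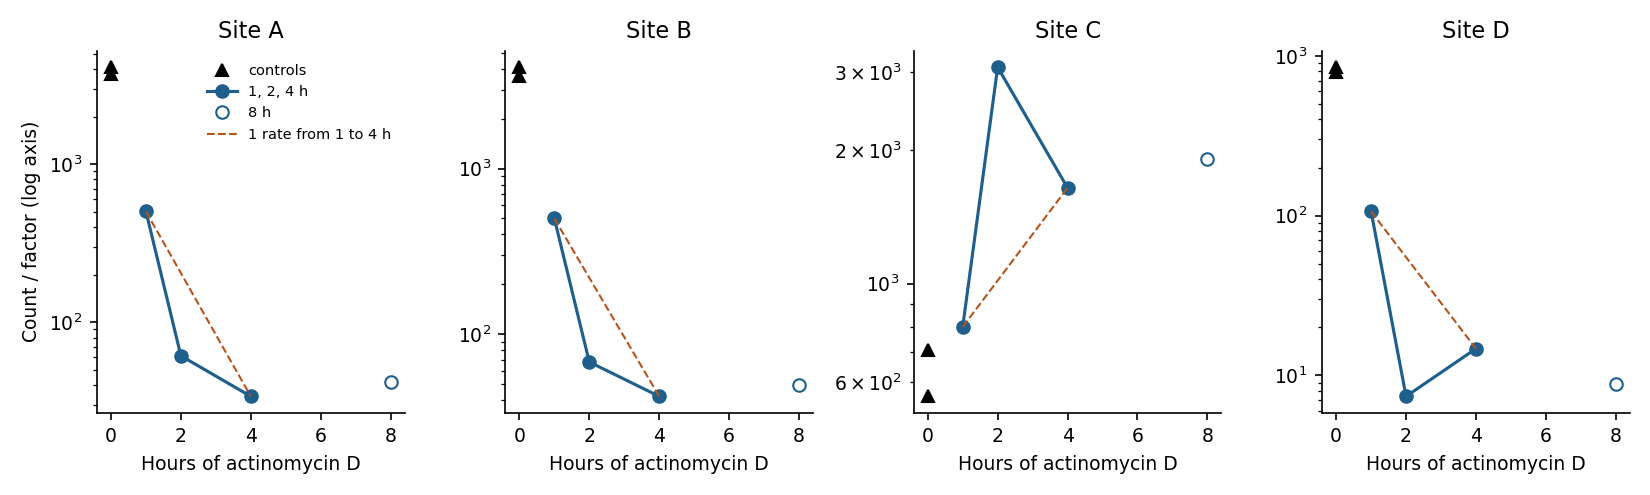
Normalised counts (y axis, log scale) against hours of actinomycin D (x axis) at the 4 called sites: A and B are the pair of ends on chromosome 10, C the end on chromosome 2 and D the end on chromosome 19. Triangles are the controls, and the dashed line is a single rate from 1 to 4 h; the 2 h point lies far below it in A, B and D and far above it in C.

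The uncalled positive changes of rate with the smallest p, among sites with at least 10 reads at 1, 2 and 4 h, were at 4 ends. All 4 were called as falling from 1 to 2 h with the header's factors (edgeR adjusted p of 0.00647 or less). At 3 of them the fall was called with all 4 scalings. The call of the end on chromosome 3 was lost with 1 scaling (edgeR adjusted p = 0.088). An end on chromosome 2 (plus strand, 167515889) held 852 and 906 normalised counts in the controls and 249, 30.7, 19.3 and 11.4 at 1, 2, 4 and 8 h. Its change of rate was 2.68 ± 0.60 (edgeR adjusted p = 0.169). An end on chromosome 15 (minus strand, 96517824) held 1820 and 2416 in the controls and 601, 103.6, 54.4 and 17.7 after 1, 2, 4 and 8 h (change of rate 2.07 ± 0.48, edgeR adjusted p = 0.199). In both, each later library is lower than the one before it, and the step from 1 to 2 h is steeper per hour than those after it. An end on chromosome 3 (minus strand, 145309941) was down to 3.54% of the controls at 1 h and held 71.6, 14.8, 32.8 and 37.9 normalised counts at 1, 2, 4 and 8 h (change of rate 2.83 ± 0.64, edgeR adjusted p = 0.188). An end on chromosome 19 (plus strand, 57464075) held 139, 15.9, 32.8 and 16.4 (change of rate 3.64 ± 0.76, edgeR adjusted p = 0.0993). At these last ends the 4 h level lay above the 2 h level, on raw counts of 29 against 14 and 15.

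At the 5 uncalled sites chosen in the same way for a negative change of rate, the level at 2 h stood above that at 1 h with every scaling. This rise was called with all 4 scalings at 3 of them, and with 1 of the 4 at each end on chromosome 16. At position 68887064 of chromosome 11, plus strand, the level was 11.8 and 8 normalised counts in the controls and 172, 583, 594 and 334 after 1, 2, 4 and 8 h. The controls are thus the lowest libraries and 2 and 4 h the highest (loss from 1 to 2 h -1.76 ± 0.38, edgeR adjusted p = 0.010; change of rate -1.74 ± 0.47, adjusted p = 0.44). The authors' deposited table lists it at 1.28 ribosomes per mRNA. An end on chromosome 5 (minus strand, 73018189) held 150.3 and 79 in the controls and 55.3, 300.2, 342 and 429 at 1, 2, 4 and 8 h. Another end on that chromosome (minus strand, 9685342) held 76.2 and 146 in the controls and 118, 446, 284 and 460. The change of rate was not called at either (edgeR adjusted p = 0.272 for both). On chromosome 16, an end at 18970398 (plus strand) held 58.6, 354 and 73.6 normalised counts at 1, 2 and 4 h, and its controls, at 29.0 and 103, differed 3.51-fold (change of rate -3.73 ± 0.86, edgeR adjusted p = 0.618). An end at 20722338 (plus strand) held 196, 461 and 238 (-1.71 ± 0.48, edgeR adjusted p = 0.515). In both, the 2 h library is the highest of the 6. RLE called the change of rate at 4 of the sites that were not called with the header's factors (57464075 on chromosome 19, 9685342 and 73018189 on chromosome 5, and 18970398 on chromosome 16).

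The 4 ends with the largest loss from 1 to 4 h, among those with at least 10 reads in each of the 3 libraries, lost mRNA in both intervals. They were picked on these same libraries, so their losses and the calls of them are largely given by the choice. On chromosome 17 (minus strand, 35093376) the level went from 359 normalised counts at 1 h to 103.6 at 2 h and 14.7 at 4 h, against 1040 and 836 in the controls. The losses of 1.79 and 1.38 log2 per hour are half-lives of 0.559 and 0.723 h, and the change of rate was 0.39 ± 0.53 (95% interval -0.68 to 1.46). On chromosome 7 (plus strand, 52086178) the level went from 356 to 79.3 and 17.0, with losses of 2.16 and 1.09 log2 per hour. On chromosome 2 (minus strand, 75513575) it went from 681 to 149 and 39.6, with losses of 2.19 and 0.95. On chromosome 13 (minus strand, 60275773) it went from 758 to 120.5 and 45.3, with losses of 2.65 and 0.70. In each of the 4, both losses were called with the header's factors (edgeR adjusted p of 0.0361 or less), and with TMM 1 of the 2 losses was not. The loss from 2 to 4 h on chromosome 13 was called with the header's factors alone of the 4 scalings (highest adjusted p 0.318). None of the 4 changes of rate was called, although all lay above 0. On chromosome 7 the change was 1.06 (95% interval -0.019 to 2.13). It was 1.24 (0.30 to 2.17) on chromosome 2 and 1.95 (1.02 to 2.88) on chromosome 13, both intervals above 0 before adjustment for the number of sites.

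Among sites that lost more than 0.25 log2 per hour in both intervals, 3 ends had the narrowest computed intervals of the change of rate. The SE was computed as the size of the change over the square root of its F statistic, which is unreliable for changes near 0. This can favour sites with close losses, so the close losses at these ends are no separate result. On chromosome 5 (minus strand, 115748431) the level went from 5610 normalised counts at 1 h to 4571 at 2 h and 3223 at 4 h, after 5179 and 5148 in the controls. Its losses were 0.30 and 0.25 log2 per hour, and its change of rate was 0.043 ± 0.38 (95% interval -0.72 to 0.80). On chromosome 15 (plus strand, 98868540) it went from 5911 to 4610 and 3096, with losses of 0.36 and 0.29 (change of rate 0.071, interval -0.69 to 0.83). On chromosome 6 (plus strand, 30400838) it went from 66.1 to 39.1 and 13.6, with losses of 0.75 and 0.74, on raw counts of 61, 37 and 12. The interval of this end is not reliable, since the SE of its change was 0.37, below the 0.61 of its loss from 1 to 2 h. With TMM the change of rate lay below 0 at all 3 (-0.19, -0.14 and -0.11 for chromosomes 6, 5 and 15). The intervals at the ends on chromosomes 5 and 15 still allowed a difference of about 0.7 log2 per hour or more to either side. Over all 11263 sites, 2 had a computed interval wholly within 0.5 log2 per hour of 0. Even the 5 most abundant ends had SEs of 0.38 to 0.39, so these 2 intervals are probably too narrow. The count of sites within 1 log2 per hour of 0, given above, shares this limit.

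The 5 most abundant ends, by reads at 1 h, showed no clear loss. The end on chromosome 19 (minus strand, 34316013) held 81635, 101330 and 108270 normalised counts at 1, 2 and 4 h, and that on chromosome X (minus strand, 163645025) 68131, 68200 and 79277. The ends on chromosomes 3 (plus strand, 90409962) and 15 (plus strand, 78760623) held 109.8% and 120.2% of their 1 h level at 4 h. The end on chromosome 2 (plus strand, 13504452) was the 1 that stood lower at 4 h than at 1 h, with 84.0% left. For all 5, neither loss nor change of rate was called (edgeR adjusted p of 0.70 or more for the losses).

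The change of rate was larger where long-term decay was faster. The sites were put into 5 equal groups by their loss from the controls to 8 h, which uses none of the 1, 2 and 4 h libraries. With the header's factors, the median loss in the group with the least long-term loss was -0.027 log2 per hour from 1 to 2 h and 0.0016 from 2 to 4 h. In the middle group the medians were 0.32 and 0.20. In the group with the most, they were 0.97 and 0.52, half-lives of 1.03 and 1.93 h, with 51.1% of the 1 h level left at 2 h and 24.3% at 4 h. The median change of rate went from -0.023 through 0.075, 0.12 and 0.19 to 0.40, and the share of sites above 0 from 47.9% to 74.7%. The difference of 0.42 log2 per hour between the outer groups does not move with the scaling.

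In the 4 groups with a measurable loss, the ratio of the first to the second median loss was 1.93, 1.64, 1.64 and 1.87 with the header's factors. The difference between the outer groups was 0.31 over sites with at least 200 reads at 1 h and 0.49 when sites were chosen by 40 reads in each control in place of 1 h. It was 0.46 and 0.39 with the groups formed from control 2 or control 1 alone. The fast group also had fewer reads, a median of 109 at 1 h against 256, and depth was addressed only by the threshold of 200. The middle 50% of sites in the fast group ran from -0.012 to 0.88, so it overlapped that of the slow group, -0.34 to 0.26. Each time is 1 library, so no test over libraries of this difference could be made.

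**Figure D5:**
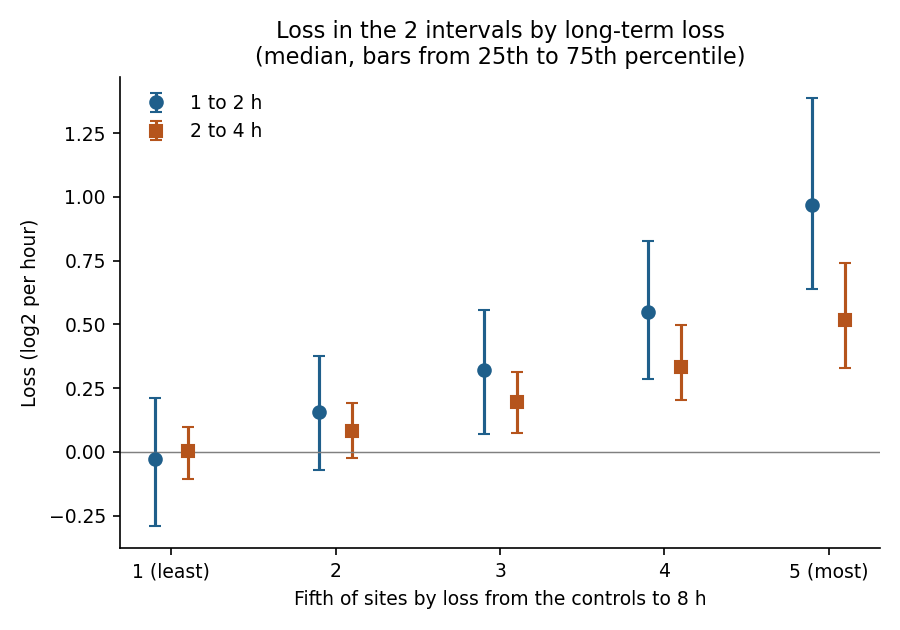
Loss from 1 to 2 h (circles) and from 2 to 4 h (squares) in log2 per hour on the y axis, for 5 equal groups of sites ordered by loss from the controls to 8 h on the x axis. Points are medians and bars run from the 25th to the 75th percentile over sites; the medians part from -0.027 and 0.0016 in the first group to 0.97 and 0.52 in the last.

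The losses of the 2 intervals were related across sites. Pearson's r was 0.29 and Spearman's rho 0.29 over 11263 sites, and 0.42 and 0.32 over 2279 sites with at least 500 reads at 1 h. Both losses contain the 2 h level with opposite signs, which lowers r, and all sites share the 3 libraries. Sites with more reads at 1 h had smaller median losses. The median losses were 0.48 and 0.25 log2 per hour at 40 to 79 reads and 0.072 and 0.035 at 2000 or more. The median change of rate was 0.17 and 0.063. The 1 h count is also part of the loss from 1 to 2 h and of the change of rate, so they are linked by construction. By chromosome, the median change of rate ran from 0.057 on chromosome 7 to 0.21 on chromosome 13.

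Median losses were smallest at the sites with the lowest ribosome load, which the authors took from a separate sucrose gradient. By the authors' deposited table, 11262 of the sites have a value, with a median of 6.50 ribosomes per mRNA. In the 5th of sites with the fewest ribosomes (median 4.19), median losses were 0.16 and 0.094 log2 per hour and the median change of rate was 0.036. In the middle group (median 6.50) they were 0.44, 0.24 and 0.19, and in the group with the most (median 8.45) 0.34, 0.17 and 0.14. Across sites, ribosomes per mRNA and change of rate had r = 0.064 (Pearson) and rho = 0.065 (Spearman), too weak to be read as a relation.

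Between ends of 1 locus, here sites on a strand each within 2000 nt of the next, losses correlated more closely than changes of rate. Of 8081 such loci, 2197 had at least 2 of the sites, and their 2 most abundant ends were compared. For ends at least 40 nt apart (1678 pairs), Pearson's r across pairs was 0.47 for the loss from 1 to 2 h, 0.43 for the loss from 2 to 4 h and 0.16 for the change of rate. For ends under 40 nt apart (519 pairs), where counts can be nearly equal as described above, r was 0.83, 0.78 and 0.70. From 40 to 99 nt (254 pairs) the change of rate had an r of 0.17. Over 638 pairs at any distance with at least 200 reads at 1 h at both ends, r was 0.66, 0.71 and 0.44. Over all 2197 pairs it was 0.56, 0.51 and 0.28. The change of rate had wider intervals than either loss, as given above, and how far this lowers its r was not tested. The distal end, farther along the transcribed strand, had a median change of rate of 0.16 and the proximal end 0.12 over the pairs at least 40 nt apart. The median difference was 0.074 log2 per hour, with the middle 50% from -0.37 to 0.49, and the distal end was higher in 54.6%. Over the same pairs, the log2 ratio of control 1 to control 2 differed between distal and proximal end by a median of -0.085, and its part in this was not tested. All pairs share the same libraries.

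The threshold of 40 reads cut through a continuum. The 483 sites with 40 to 44 reads at 1 h had median losses of 0.49 and 0.25 log2 per hour and a median change of rate of 0.19. The 589 filtered sites with 35 to 39 reads had 0.51, 0.22 and 0.24. Among the sites nearest the threshold, on chromosome 1, the change of rate was 0.24, 0.20 and 1.04 at 3 sites with 40 reads (minus strand, 9657493, 58714964 and 95197806). It was -1.38 at 10544093 (minus strand), -0.51 at 59769028 and 1.38 at 93456159 (both plus strand), which held 39 reads. Of the 11263 sites, 10789 held at least 10 reads in each of the 1, 2 and 4 h libraries. There were 7 sites with 0 reads at 4 h, from 42 to 59 reads at 1 h, and 4 of them also had 0 at 8 h, so their fitted losses from 2 to 4 h depend on the pseudocount.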

How the data were processed

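The authors' deposited table holds raw read counts at poly(A) sites annotated from 3P-Seq, with mm9 positions and 1 factor per library, per the file headers. Reads were aligned with Bowtie, per the submitters' processing notes, in a version not given in the sources used here. Half-life and ribosomes per mRNA, which the authors deposited as a score per site, were used as given. The unit of the half-life is not stated. The 6 gradient columns of per-sample values were not used, and the 2 3P-Seq samples among the 14 were not analysed here.

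Counts of the 6 control and actinomycin D libraries (4045420 to 6433503 reads) were fitted in edgeR 4.0.16 (R 4.3.3, quasi-likelihood, robust), with 1 level per time, the header's factors as offsets and sites of at least 60 reads in all, and Benjamini-Hochberg adjustment over these sites. The residual degrees of freedom were 1, from the controls. PCR reads are not independent molecules. DESeq2 1.42.0, TMM, RLE, library totals, other thresholds, pseudocounts (0.1, 2) and models were alternatives.

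Sites were named by rule from those with at least 10 reads at 1, 2 and 4 h: up to 6 with the largest change of rate in each direction (called ones first, then by smallest p), the 5 with most reads, the 3 with the narrowest interval, the 4 with the largest loss, and those at the threshold, given as classes. Members and lists were chosen with earlier results of these data known. Gene lists could not be used, since no annotation of mm9 was used here.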

Additional observations from a re-analysis of the deposited data

How the results depend on the processing

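The alternatives for the medians of the losses and for the 5 groups by long-term loss, and those for named sites, were chosen after seeing the data. No paired analysis was possible because each time has 1 library and only the controls carry replicate numbers. Without either control the model with 1 level per time has no residual degree of freedom, and without the 1, 2 or 4 h library the change of rate does not exist.

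Sites called for a change of rate numbered 4 as reported, 1 with TMM, 9 with RLE, 1 with library totals, 0 with DESeq2 (83 at an unadjusted p under 0.05), 12 with no count minimum and 11 with 1 slope shared from 2 to 8 h. With that shared slope and 1 control left out they ranged from 72 to 76. For the loss from 1 to 2 h, 234 sites were called as reported, 48 with TMM, 153 with RLE, 81 with library totals, 33 with DESeq2 (no adjusted p for 4219), 361 with no count minimum and 102 among sites with at least 200 reads; the shared slope with 1 control left out gave 812 to 882. For the loss from 2 to 4 h, 339 were called as reported, 22 with TMM, 115 with RLE, 63 with library totals, 36 with DESeq2 (no adjusted p for 6164) and 196 with at least 200 reads. The shared slope gave 4371, and 5102 to 5127 with 1 control left out. That slope runs from 2 to 8 h and also uses the 8 h library, so these counts are not for the interval from 2 to 4 h alone. A higher threshold leaves fewer sites, and the causes of the other moves were not tested.

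The median change of rate of 0.14 reversed with TMM (-0.049) and was 0.0043 with RLE. The median loss from 1 to 2 h was -0.0035 with TMM, which reverses it, 0.044 with RLE, 0.25 with library totals and 0.25 with at least 200 reads. That from 2 to 4 h was 0.027, 0.021, 0.13 and 0.14 in the same order. The difference between the outer groups by long-term loss was 0.31 with at least 200 reads and 0.39 to 0.46 with the groups formed without 1 control. Over 78 settings for the called sites and the uncalled ones with the smallest p in each direction, none changed sign, 10 lost a call and 11 gained one. Because these sites were chosen by p, a change of sign was unlikely beforehand.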
